A study of Mus musculus with 6 samples.

Results

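The myeloid chemokine ligands described here are 10 genes, Ccl2, Ccl3, Ccl4, Ccl5, Ccl6, Ccl9, Ccl17, Ccl22, Cxcl2 and Cxcl16, chosen by symbol from the 55335 genes of a count table. All 10 were in the table and 9 had enough counts to be tested. The tenth, Ccl17, stood near 0. RNA was sequenced from CD11b+ cells sorted by flow cytometry from the spleens of mice labelled wild type. The MI+RDN group (3 biological replicates) had myocardial injury and renal denervation, which cuts the nerve supply of the kidney, and the MI group (3 biological replicates) had the injury without denervation. Both groups therefore carry the cardiac injury, and no uninjured group was analysed here. Strain, age, the time from injury to cell collection, and whether a replicate was a single mouse or a pool are not stated in the labels. P-values therefore measure the spread between these 6 libraries.

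Chemokines are small secreted proteins that bind G protein-coupled receptors on leukocytes and direct their movement. The CC ligands Ccl2, Ccl3, Ccl4, Ccl5, Ccl6 and Ccl9 act mainly on monocytes, macrophages and T cells. Cxcl2 draws neutrophils through Cxcr2, and dendritic cells are a known source of Ccl17 and Ccl22, the ligands of Ccr4. The spleen is a reservoir of monocytes that leave for the heart after an infarct, and Ccl2 and its receptor Ccr2 are known for their part in monocyte traffic. Many of these ligands are induced through NF-kB, a transcription factor of inflammatory signalling that binds the kappaB motif.

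Library totals were 24634555 to 28013900 counts in MI+RDN and 21663440 to 24677865 in MI. Itgam, which encodes CD11b, stood at 1598 ± 95.2 CPM in MI+RDN and 1133 ± 150 CPM in MI (SD, n = 3 each; CPM, counts relative to library sizes scaled by TMM factors). The neutrophil marker Ly6g was at 127 ± 38.0 CPM in MI+RDN and 43.6 ± 10.5 in MI, and the inflammatory monocyte marker Ly6c2 was at 698 ± 73.9 CPM in MI+RDN and 369 ± 39.4 in MI. Ly6c2 was the only 1 of 7 Ly6C-high monocyte markers to pass, and their median log2 fold change was -0.16, with 3 positive and 4 negative. Markers of cells outside the myeloid lineage were also present. The T cell gene Cd3e stood at 2.17 ± 0.659 CPM in MI+RDN and 5.66 ± 1.35 in MI. The B cell gene Cd79a stood at 68.7 ± 22.1 CPM in MI+RDN and 124 ± 26.9 in MI. Per kilobase of merged exons, Cd79a lay above Ly6g in MI (means of 85.0 against 46.2 CPM per kb). In these bulk samples, fewer cells of a type and less RNA per cell cannot be told apart.

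None of the 9 tested ligands passed the test between MI+RDN and MI (edgeR quasi-likelihood test, Benjamini-Hochberg adjusted p from 0.177 to 0.960), against 1.01% of the 14849 genes tested, 0.296% higher and 0.714% lower in MI+RDN. DESeq2 and limma-voom also called 0 of the 9. At an unadjusted p under 0.05 there were 2 of the 9, Ccl2 and Cxcl16, where 19.9% of all tested genes lay under that value. The median log2 fold change, MI+RDN over MI, was -0.24 over the 9 ligands and 0.0080 over all tested genes, with 2 ligands positive and 7 negative. The groups did not overlap for Ccl2, higher in MI+RDN, or for Cxcl16, lower in MI+RDN, and 26.2% of all tested genes likewise had groups that did not overlap, 12.4% higher and 13.7% lower.

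**Figure D1:**
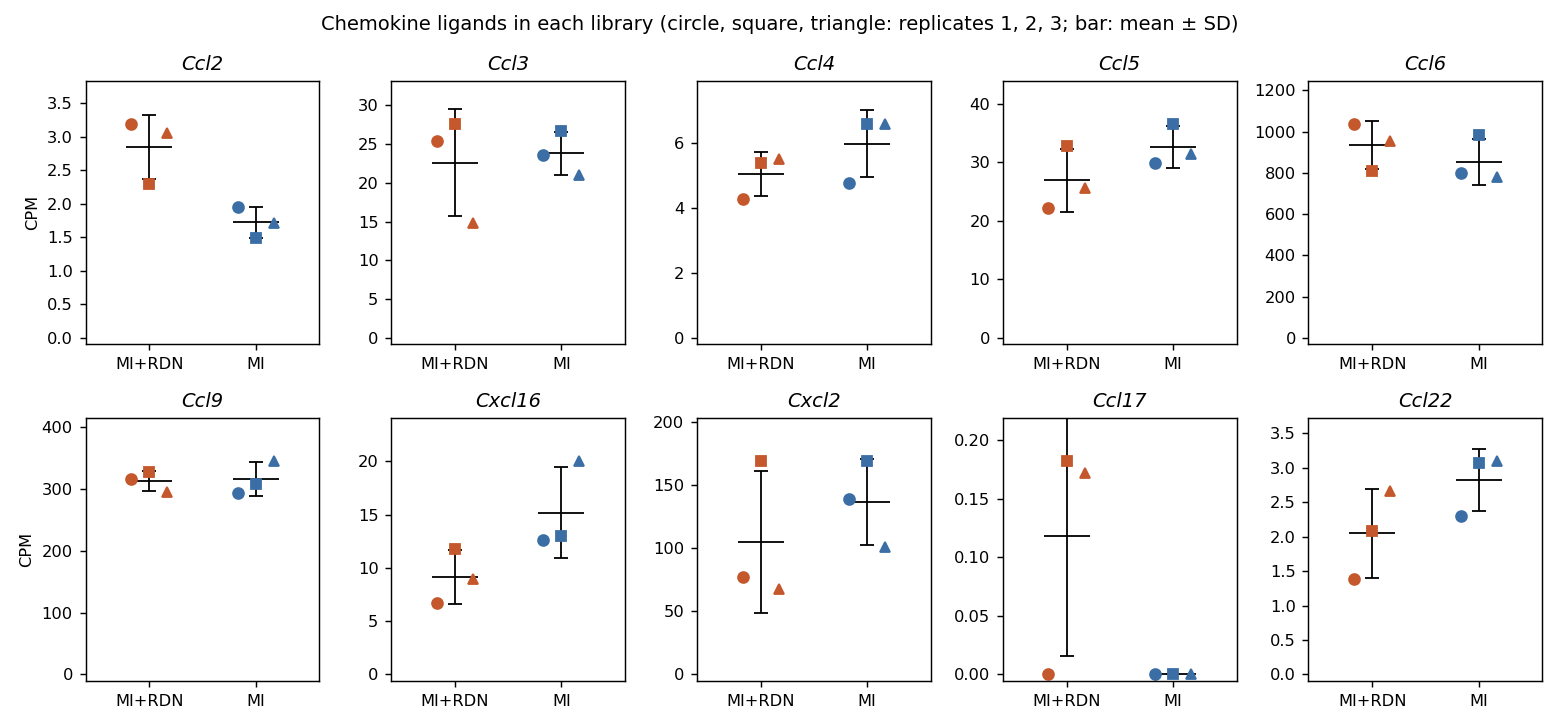
CPM of each of the 10 ligands by group, MI+RDN left and MI right, with 1 point per library (circle, square and triangle for replicates 1, 2 and 3) and the mean ± SD of 3 libraries. The groups are apart for Ccl2 and Cxcl16 and overlap for the others, and MI+RDN replicate 2 lies far above the other MI+RDN libraries for Cxcl2 (169 CPM against 77.4 and 67.7).

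In MI+RDN the ligands spanned more than 3 orders of magnitude if Ccl17, with 9 counts in all, is included. The tested ligands spanned less than that in both groups. Per kilobase of merged exons, Ccl6 was the most abundant, at 520 ± 65.2 CPM per kb in MI+RDN and 476 ± 62.3 in MI (SD, n = 3 each). Ccl9 followed at 103 ± 5.43 CPM per kb in MI+RDN and 104 ± 8.98 in MI. Both are CCR1 ligands known from rodents. Together they made up 75.4% to 85.3% of the summed per-kilobase level of the 40 chemokine ligands listed (these 10 and 30 others) in MI+RDN libraries, and 77.1% to 78.8% in MI libraries. Cxcl2 came next at 50.7 ± 27.1 CPM per kb in MI+RDN and 66.0 ± 16.4 in MI. Its range lay below that of Ccl9 in both groups. It lay above that of Ccl5 in MI (48.9 to 81.7 against 31.1 to 38.1 CPM per kb) and overlapped it in MI+RDN (32.8 to 81.9 against 23.2 to 34.3).

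Ccl5 (28.1 ± 5.64 CPM per kb in MI+RDN and 34.0 ± 3.67 in MI) and Ccl3 (29.5 ± 8.97 in MI+RDN and 31.1 ± 3.70 in MI) could not be ordered, since their ranges overlapped in both groups. Ccl4 lay below both at 7.65 ± 1.02 CPM per kb in MI+RDN and 9.06 ± 1.58 in MI. The order of the next pair depended on the group. Cxcl16 was above Ccl2 in MI (5.03 ± 1.40 against 1.51 ± 0.207 CPM per kb), whereas in MI+RDN their ranges overlapped (2.22 to 3.91 for Cxcl16 and 2.02 to 2.81 for Ccl2). Ccl22 was lower still, at 0.879 ± 0.275 CPM per kb in MI+RDN and 1.21 ± 0.195 in MI, where its range overlapped that of Ccl2. The members' share of all counts was 0.130% to 0.140% in MI+RDN libraries and 0.135% to 0.158% in MI libraries.

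**Figure D2:**
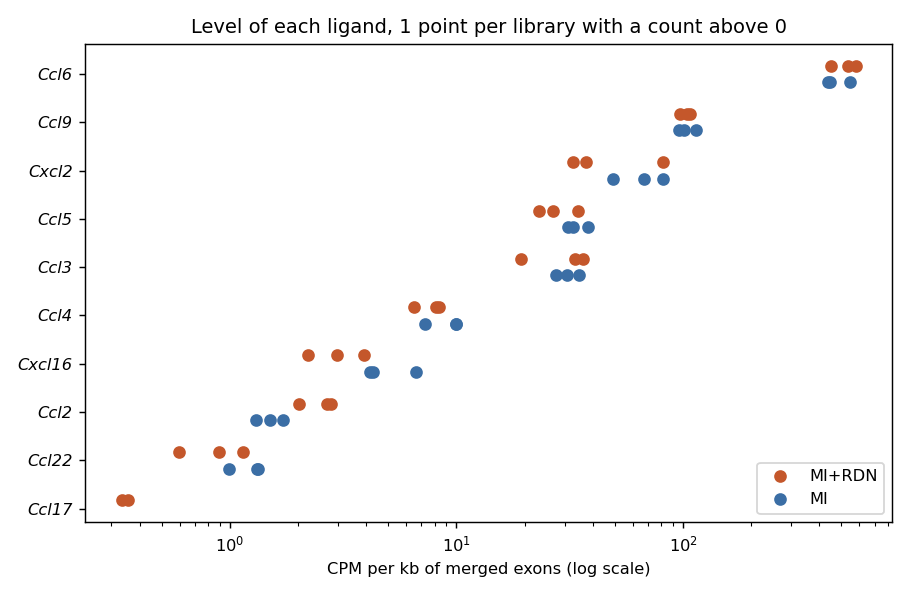
Level of each ligand in CPM per kilobase of merged exons on a log axis, with 1 point for each library that had a count above 0 (MI+RDN in orange above MI in blue in each row). Ccl6 lies near 500 and Ccl22 near 1 CPM per kb, and Ccl17 has points for 2 MI+RDN libraries and none for MI.

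Promoter sequences are shown for the most abundant ligands, Ccl6 and Ccl9, for Cxcl2, the tested ligand that varied most between MI+RDN libraries, and for Ccl22, the tested dendritic cell ligand. RefSeq promoter windows (GRCm38.p6, an older build than the GRCm39 to which the submitters aligned) were matched by symbol for 6 of the 10 members: Ccl3, Ccl6, Ccl9, Ccl17, Ccl22 and Cxcl2. In each, the 250 bases before the gene start were searched on both strands for the kappaB consensus, the cAMP response element TGACGTCA and TATAAA. They were also searched for TGANTCA, a looser pattern than the AP-1 consensus, since it takes any middle base. The last 120 of those bases are printed 5′ to 3′ along the gene, with matches to the kappaB consensus in capitals.
Cxcl2 (chr5:90903779-90903898, plus strand): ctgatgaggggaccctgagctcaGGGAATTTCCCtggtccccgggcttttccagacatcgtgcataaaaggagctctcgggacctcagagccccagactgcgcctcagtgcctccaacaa
Ccl9 (chr11:83578637-83578756, minus strand): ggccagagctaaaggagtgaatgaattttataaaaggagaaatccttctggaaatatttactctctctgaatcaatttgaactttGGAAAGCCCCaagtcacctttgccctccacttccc
Ccl6 (chr11:83593088-83593207, minus strand): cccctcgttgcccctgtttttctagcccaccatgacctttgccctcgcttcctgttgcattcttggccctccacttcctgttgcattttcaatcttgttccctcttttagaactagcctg
Ccl22 (chr8:94745564-94745683, plus strand): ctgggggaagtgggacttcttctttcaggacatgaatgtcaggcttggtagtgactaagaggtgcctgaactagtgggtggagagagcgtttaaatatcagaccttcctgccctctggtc

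In Cxcl2 the kappaB consensus was matched at 97 to 88 bases before the start (GGGAATTTCC) and on the other strand at 96 to 87 bases, so the matches overlap. In Ccl9 it was matched once, on the minus strand of the gene, at 35 to 26 bases. A match was present in 7.25% of the 32851 promoter windows of the same length. Ccl9 also held TGANTCA, as TGAATCA, at 53 to 47 bases, a pattern found in 6.75% of windows. It held TATAAA or its complement at 3 places, 2 of which overlap (12.4% of windows). The cAMP response element, found in 1.55% of windows, was in none of the 6 windows, and Ccl3, Ccl6, Ccl17 and Ccl22 held no match to any of them. A match is a description of these letters and says nothing of factor binding in these cells.

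Among the monocyte and macrophage ligands, Ccl2, the main ligand of the monocyte receptor Ccr2, had the largest positive fold change, at a low level. It stood at 3.19, 2.30 and 3.05 CPM in MI+RDN replicates 1 to 3, against 1.96, 1.49 and 1.72 CPM in MI. Every MI+RDN library was above every MI library. The fold was 1.65 with a 95% interval of 1.10 to 2.49 (edgeR, Benjamini-Hochberg adjusted p = 0.177), and the values rested on 63 to 83 counts per MI+RDN library and 33 to 46 per MI library. The log2 fold change of 0.72 ranged from 0.63 to 0.84 with each library left out, without passing the threshold. The receptor Ccr2 stood at 765 ± 179 CPM in MI+RDN and 857 ± 154 in MI (SD, n = 3), and the summed Ly6C-high monocyte markers at 4755 to 5521 CPM in MI+RDN and 4717 to 5816 in MI, ranges that overlap.

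Cxcl16, a membrane-bound chemokine that also takes up oxidised lipoprotein, was the ligand with the most negative fold change. It stood at 6.70, 11.8 and 8.98 CPM in MI+RDN replicates 1 to 3, against 12.6, 12.9 and 20.1 CPM in MI. The groups did not overlap, with MI+RDN replicate 2 close to the lower MI libraries and MI replicate 3 apart from the other MI libraries. The log2 fold change was -0.73 (SE 0.26), a 0.603-fold level with a 95% interval of 0.398 to 0.912 (edgeR, Benjamini-Hochberg adjusted p = 0.177). Without MI replicate 3 it was -0.48, and with the DESeq2 Wald test the adjusted p was 0.0698. MI replicate 3 was also the highest library for summed conventional DC2 markers (927 CPM), splenic macrophage markers (1121 CPM) and B cell markers (743 CPM). It was the lowest library for summed neutrophil markers (15704 CPM). For mature dendritic cell and T cell markers the highest libraries were MI replicate 2 (191 CPM) and MI replicate 1 (96.1 CPM). The part of these cells in the Cxcl16 value was not tested. Cxcr6, its receptor, had 0 to 7 counts in MI+RDN libraries and 3 to 25 in MI libraries and was not tested.

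Ccl3 and Ccl4, related inflammatory ligands, showed no difference past the spread between libraries. Ccl3 stood at 25.4, 27.6 and 14.8 CPM in MI+RDN and at 23.6, 26.7 and 21.0 CPM in MI. MI+RDN replicate 3 was the lowest of the 6 libraries and the others lay close together. The fold was 0.952 (95% interval 0.663 to 1.37), with a sign that turned without MI+RDN replicate 3 or MI replicate 2. Ccl4 stood at 4.27, 5.37 and 5.50 CPM in MI+RDN and at 4.77, 6.58 and 6.58 CPM in MI, a fold of 0.844 (95% interval 0.605 to 1.18). Its log2 fold change of -0.24 became -0.13 when MI+RDN replicate 1 was left out and -0.38 when MI replicate 1 was. MI+RDN replicate 3, lowest for Ccl3, was the highest MI+RDN library for Ccl4. The log2 ratio of Ccl3 to Ccl4 ranged from 1.43 to 2.57 in MI+RDN and from 1.68 to 2.31 in MI.

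Ccl5, a ligand that T and NK cells also make, stood at 22.3, 32.9 and 25.7 CPM in MI+RDN and at 29.9, 36.6 and 31.5 CPM in MI. MI+RDN replicate 2 lay within the MI range and the other MI+RDN libraries below it. The fold was 0.825 (95% interval 0.640 to 1.06; edgeR, Benjamini-Hochberg adjusted p = 0.372). The log2 fold change of -0.28 became -0.46 when MI+RDN replicate 2 was left out (adjusted p = 0.127, edgeR) and -0.15 when MI+RDN replicate 1 was. Summed NK cell markers (9 of 9 tested) ranged from 183 to 269 CPM in MI+RDN and from 225 to 252 in MI. MI+RDN replicate 2 was highest in its group for both them and Ccl5. In MI the highest library was replicate 3 for the NK cell markers and replicate 2 for Ccl5. Summed T cell markers (10 of 10 tested, 1 lower past the threshold, Cd3d) ranged from 43.6 to 57.8 CPM in MI+RDN and from 76.2 to 96.1 in MI. The part of these cells in the Ccl5 level was not tested.

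Ccl6 and Ccl9 had the narrowest intervals of the family. Ccl6 stood at 1038, 807 and 957 CPM in MI+RDN and at 799.5, 983 and 781 CPM in MI. The libraries of the groups were interleaved, and the fold was 1.09 (95% interval 0.867 to 1.38). Ccl9 stood at 316, 328 and 295.5 CPM in MI+RDN and at 293, 309 and 346 CPM in MI, a fold of 0.991 (95% interval 0.843 to 1.17). All 6 libraries lay within a narrow band for Ccl9. Without scaling factors, where the median log2 fold change of all genes moved to -0.13, the sign for Ccl6 turned. Their receptor Ccr1 stood at 591 ± 107 CPM in MI+RDN and 447 ± 81.5 in MI (SD, n = 3; edgeR, Benjamini-Hochberg adjusted p = 0.264).

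**Figure D3:**
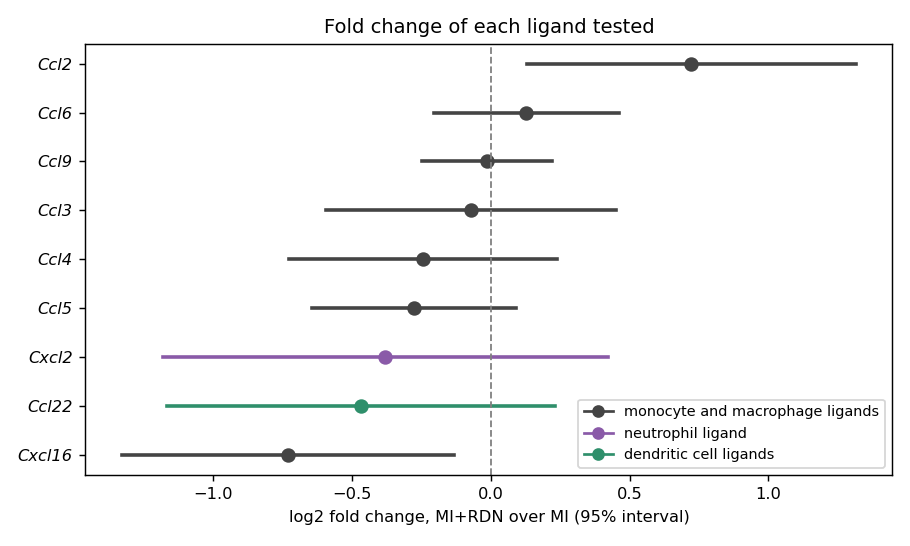
Log2 fold change of MI+RDN over MI for the 9 tested ligands, with 95% intervals from the edgeR fit, coloured by ligand group. The intervals for Ccl9 and Ccl6 are the narrowest and include 0, those for Ccl2 and Cxcl16 lie on opposite sides of 0 before adjustment for multiple tests, and those for Cxcl2 and Ccl22 are wide and include 0.

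Cxcl2, the neutrophil ligand, stood at 77.4, 169 and 67.7 CPM in MI+RDN and at 139, 169 and 101 CPM in MI. MI+RDN replicate 2 lay beside the highest MI library and the other MI+RDN libraries lay below every MI library. The coefficient of variation was 53.5% in MI+RDN and 24.9% in MI, the largest of the tested ligands in MI+RDN. The log2 fold change was -0.38 (SE 0.35; edgeR, Benjamini-Hochberg adjusted p = 0.580), a 0.769-fold level with a 95% interval of 0.441 to 1.34. Leaving out MI+RDN replicate 2 gave -0.93 (adjusted p = 0.0777, edgeR). It was closer to 0 when MI+RDN replicate 1 (-0.20), MI+RDN replicate 3 (-0.15) or MI replicate 2 (-0.19) was left out.

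Neutrophil markers had fold changes of the opposite sign to that of Cxcl2, whose own interval included no change. All 12 in the list were positive, with Ly6g and Retnlg past the threshold. Of all 14849 genes tested, 7568 were positive and 0.296% passed as higher in MI+RDN. The summed neutrophil markers ranged from 28441 to 52034 CPM in MI+RDN and from 15704 to 24631 in MI. MI+RDN replicate 2 had the highest sum, and it was also the highest library for Cxcl2. The listed markers did not all follow the sum. Csf3r (4362 CPM) and Cxcr2 (1241 CPM) were lowest there among MI+RDN libraries, and Mmp9 was below its level in MI+RDN replicate 1. Every other listed marker was highest in that library. The log2 ratio of Cxcl2 to the summed neutrophil markers was added after the values were seen. It was -8.63 ± 0.331 in MI+RDN and -7.30 ± 0.128 in MI (SD, n = 3), and the groups did not overlap. The marker sum alone was apart between the groups and Cxcl2 alone overlapped, so the ratio is not a separate result. Groups were likewise apart for 26.2% of single tested genes. Ratios of Ccl2 to summed Ly6C-high monocyte markers (MI+RDN higher) and of Ccl5 to summed NK cell markers (MI+RDN lower) were also apart. Ccl2 was apart alone and its marker sum overlapped, so its ratio is not a separate result either. The Ccl5 ratio was narrowly apart, with -3.03 the highest in MI+RDN and -3 the lowest in MI. Ccl5 and the NK cell sum each overlapped alone. Ratios of Ccl5 to T cell markers and of Ccl22 to dendritic cell markers overlapped. Cxcr2, the receptor of Cxcl2 and itself in the neutrophil list, stood at 1743 ± 440 CPM in MI+RDN and 1244 ± 238 in MI. Cxcr1 stood at 11.7 ± 1.51 CPM in MI+RDN and 11.0 ± 2.63 in MI, and neither passed.

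Of the dendritic cell ligands, Ccl22 stood at 1.39, 2.08 and 2.66 CPM in MI+RDN and at 2.30, 3.07 and 3.10 CPM in MI. MI+RDN replicate 3 overlapped the MI range and the other MI+RDN libraries lay below it. The fold was 0.723 (95% interval 0.446 to 1.17; edgeR, Benjamini-Hochberg adjusted p = 0.429), from 36 to 62 counts per MI+RDN library and 54 to 83 per MI library. The log2 fold change of -0.47 became -0.25 when MI+RDN replicate 1 was left out and -0.71 when MI+RDN replicate 3 was. Ccl17 had 0, 5 and 4 counts in MI+RDN replicates 1 to 3, against 0 counts in each MI library, where 3 counts over the group would be 0.0414 CPM. Against that floor the MI+RDN level was 2.84-fold higher, a figure that leaves out the sampling error of 9 counts in all. MI+RDN replicate 1 had 0 counts like the MI libraries, so the groups overlapped. Ccl17 fell under the filter, and without a filter it missed the threshold (edgeR, Benjamini-Hochberg adjusted p = 0.399).

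Markers of dendritic cells had negative fold changes beside these ligands. Of 11 markers of mature dendritic cells, a state in which Ccl22 is known to be made, 11 had negative fold changes and 1 passed, Apol7c, at 7.54 ± 1.37 CPM in MI+RDN against 22.5 ± 3.03 in MI. Their sum ranged from 97.1 to 128 CPM in MI+RDN and from 162 to 191 in MI. Of 8 conventional DC2 markers, 8 were negative and 3 passed, among them Cd209a at 26.1 ± 8.83 CPM in MI+RDN and 116 ± 44.1 in MI. Of all 14849 genes tested, 7281 were negative and 0.714% passed as lower in MI+RDN. The negative sign was not particular to dendritic cells. All 10 T cell markers, all 9 B cell markers and 11 of 12 splenic macrophage markers were negative too. All 12 neutrophil markers were positive. The ratio of Ccl22 to the summed mature dendritic cell markers, also added after the values were seen, was -5.75 ± 0.326 on the log2 scale in MI+RDN and -5.98 ± 0.148 in MI (SD, n = 3), and the groups overlapped. Ccr4, the receptor of both ligands, had 0 counts in all MI+RDN libraries, against 8 counts in each MI library. With 3 counts over the group as the floor, its level was 8.46-fold lower in MI+RDN, a figure that likewise leaves out sampling error. These few counts, equal in the 3 MI libraries, fell under the filter, and without a filter Ccr4 missed the threshold (edgeR, Benjamini-Hochberg adjusted p = 0.138). T cells are a known source of Ccr4, and the summed T cell markers, given above, did not overlap between the groups; their part was not tested.

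**Figure D4:**
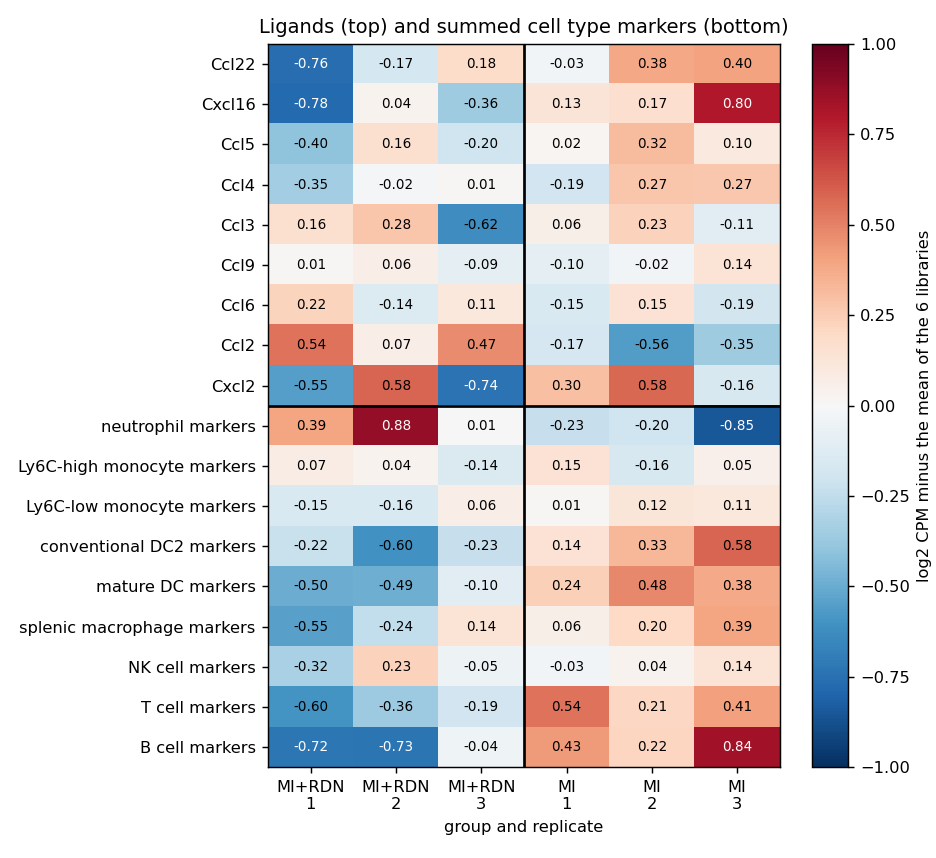
Log2 CPM of the 9 tested ligands (top) and of summed cell type markers (bottom) in each library, minus the mean of the 6 libraries, with MI+RDN left of MI. Cxcl2 is at 0.58 in MI+RDN replicate 2 and at -0.55 and -0.74 in the other MI+RDN libraries, while neutrophil markers are at 0.88 in that replicate and Ccl9 stays within 0.14 of its mean in all 6 libraries.

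Within each library, the ligand groups were set against each other, which does not depend on library scaling. The log2 ratio of dendritic cell ligands to monocyte and macrophage ligands was -9.997, -9.07 and -8.85 in MI+RDN and -8.98, -8.81 and -8.61 in MI. The groups overlapped, and MI+RDN replicate 1 was the lowest library. The log2 ratio of Cxcl2 to the monocyte and macrophage ligands was -4.19, -2.84 and -4.27 in MI+RDN and -3.07, -3.03 and -3.58 in MI. Here MI+RDN replicate 2 was the highest of all libraries and the other MI+RDN libraries were the lowest. Ccl6 dominates the denominator of both ratios.

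Of the 10 receptors of these ligands, 8 were tested and 0 passed by edgeR, DESeq2 or limma-voom. At an unadjusted p under 0.05 there was 1 of the 8, against 19.9% of all tested genes (edgeR). The median log2 fold change was -0.049, against 0.0080 for all tested genes. The lowest p was that of Ccr3, a receptor of eosinophils and basophils, at 14.6 ± 1.80 CPM in MI+RDN and 20.5 ± 3.14 in MI (edgeR, Benjamini-Hochberg adjusted p = 0.143). The atypical receptors were at low levels, with Ackr1 at 0.366 ± 0.152 CPM in MI+RDN and 0.610 ± 0.246 in MI. Ackr2 stood at 1.70 ± 0.208 CPM in MI+RDN and 2.68 ± 0.884 in MI.

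Among 30 other chemokine ligands, 7 had no count in any library, 9 were tested and 0 passed by edgeR or limma-voom. DESeq2 called 1, against 1165 of all 14849 genes tested. At an unadjusted p under 0.05 there was 1 of the 9, against 19.9% of all tested genes (edgeR). The median log2 fold change was -0.19. The lowest p values belonged to Ppbp and Cxcl3. Ppbp, a chemokine of platelets, stood at 1.46 ± 0.632 CPM in MI+RDN and 3.25 ± 0.259 in MI (edgeR, Benjamini-Hochberg adjusted p = 0.119), and it was the gene that DESeq2 called, with an adjusted p of 0.0384. Summed platelet markers other than chemokines ranged from 7.44 to 10.2 CPM in MI+RDN and from 6.17 to 12.4 in MI. Cxcl3, a relative of Cxcl2, had 7, 10 and 0 counts in MI+RDN and 20, 15 and 12 in MI. No MI+RDN library reached the lowest MI library (edgeR, Benjamini-Hochberg adjusted p = 0.310). Groups were apart with MI+RDN lower for 2 of the 9 tested, and for 13.7% of all genes tested.

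NF-kB target and feedback genes included 1 that fell, 0 that rose and 18 that did not pass among the 19 tested, with a median log2 fold change of -0.39. At an unadjusted p under 0.05 there were 10 of the 19, against 19.9% of all tested genes (edgeR). The one that fell was Cd83, a surface protein of mature dendritic cells and B cells, at 11.8 ± 1.96 CPM in MI+RDN and 25.9 ± 4.55 in MI (edgeR, Benjamini-Hochberg adjusted p = 0.0401). Its call was lost when any library was left out. Tnfaip3, a feedback inhibitor of NF-kB, stood at 69.9 ± 5.98 CPM in MI+RDN and 104 ± 8.23 in MI. It missed the threshold by edgeR (Benjamini-Hochberg adjusted p = 0.0511). DESeq2 called it and 7 others, all lower, against 1165 of all 14849 genes tested. The inflammatory cytokine Il1b stood at 1188 ± 312 CPM in MI+RDN and 1042 ± 94.9 in MI. Of these genes, 9 had groups that did not overlap with MI+RDN lower, as did 13.7% of all genes tested. Summed B cell markers, from 250.1 to 403 CPM in MI+RDN and from 481 to 743 in MI, were also apart between the groups, and their part was not tested.

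Immediate early genes, which respond quickly to stimulation, had 0 of 15 past the threshold by edgeR and by limma-voom. DESeq2 called 2, against 1165 of all 14849 genes tested. At an unadjusted p under 0.05 there were 3 of the 15, near the 19.9% of all tested genes (edgeR). Their median log2 fold change was 0.032. The lowest p values were those of the heat shock genes Hspa1b and Hspa1a, near-identical paralogs whose reads may be shared. They were also the 2 that DESeq2 called, both lower in MI+RDN. Hspa1b stood at 14.8 ± 3.64 CPM in MI+RDN and 39.2 ± 15.6 in MI (edgeR, Benjamini-Hochberg adjusted p = 0.0654). The other gene at an unadjusted p under 0.05, Ier2, went the other way. It stood at 313 ± 16.5 CPM in MI+RDN and 240 ± 48.6 in MI (edgeR, Benjamini-Hochberg adjusted p = 0.210). Fos, a component of AP-1, stood at 1882 ± 92.6 CPM in MI+RDN and 1619 ± 436 in MI.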

How the data were processed

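RNA was taken from splenic CD11b+ cells with a Qiagen kit, and strand-specific TruSeq libraries were sequenced on an Illumina NovaSeq, per the labels' protocols. FastQC 0.11.2, STAR and GRCm39 are named in the submitters' processing notes. The counting tool, annotation release and handling of reads shared by paralogs are not stated in the labels. The authors deposited raw counts per Ensembl gene, 1 column per library. Symbols came from GENCODE M21 by gene ID, and merged exon lengths from the same annotation.

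In R 4.3.3, edgeR 4.0.16 (filterByExpr, TMM, quasi-likelihood F test) compared MI+RDN with MI over 14849 genes, with Benjamini-Hochberg adjustment at 0.05. Standard errors were taken as |log2 fold change| divided by √F, and 95% intervals use the fit's degrees of freedom. The common biological coefficient of variation was 20.7%. The fit was tested on simulated data. Alternatives used other scalings, filters, limma 3.58.1 voom, DESeq2 1.42.0, the replicate number as a block, and each library left out. Figures were drawn with matplotlib 3.10.9. The members and lists were chosen with earlier results of these data known. Some named items are not reported here. Named genes were all members and their receptors, listed genes past the threshold or the 2 with the lowest p, and preset markers; further genes illustrate their lists and were chosen after their values were seen.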

Additional observations from a re-analysis of the deposited data

How the results depend on the processing

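The count of ligands past the threshold was 0 under all 14 alternatives, as was that of their receptors. Of 124 fold changes of single ligands under alternatives, 119 kept their direction and 5 turned. Ccl6 turned to -0.0083 without scaling factors. With each library left out, Ccl3 ranged from -0.26 to 0.14 and was also positive without MI replicate 2 (0.021), and Ccl9 ranged from -0.065 to 0.058 and was also positive without MI+RDN replicate 3 (0.011). The cause was not tested. Fits with a mean of at least 5 CPM did not include Ccl2 and Ccl22.

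The count over all genes, 150, was 475 without scaling factors (62 higher and 413 lower, against 44 and 106), 21 without a filter, 289 with the filter at a mean of 5 CPM, 1165 with the DESeq2 Wald test (561 higher and 604 lower) and 0 to 67 with each library left out. It was 0 without MI+RDN replicate 1 (2323 genes at an unadjusted p under 0.05, edgeR) and without MI replicate 3 (2084 genes). NF-kB target and feedback genes past the threshold, 1, were 2 with upper-quartile factors, 8 without scaling factors, 0 without a filter, 5 where genes had to average 5 CPM, 8 with DESeq2 and 0 with any library left out. Other chemokine ligands numbered 1 with DESeq2. Immediate early genes numbered 2 without scaling factors and 2 with DESeq2. With the replicate block, 87 genes passed in all, 2 of them in the NF-kB list, and 0 ligands. At an unadjusted p under 0.05 (edgeR) there were 4 ligands with the block and 2 without it. Of all 14849 genes, 2548 lay under that value with the block. The SE for Cxcl2 was 0.17 with the block and 0.35 without it. The labels do not say that a shared replicate number pairs libraries, so the numbers were not taken as pairs. Over 5000 genes, deviations of same-numbered libraries had correlations of 0.0074, -0.050 and 0.080, which does not settle pairing for single ligands. Ccl2, Ccl22 and Ccl17 rested on under 100 counts per library.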

Other observations

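For 1 ligand of each group, the tested genes of at least 1 CPM whose log2 CPM followed it most closely over the 6 libraries were listed, out of 11343 candidates, as a description only. For Ccl6 they were Ubxn4, Commd9 and Ric1, with Pearson correlations of 0.989, 0.989 and 0.983. For Cxcl2 they were Psme3 and Ccdc14, with 0.977 and 0.969. For Ccl22 they were Igf1, Smagp and Tmem221, with 0.996, 0.995 and 0.994. With so many candidates and 6 libraries, values of this size carry no test.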
